A study of Mus musculus with 8 samples.

Results

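The genes described here are Fkbp5 and 6 others of the glucocorticoid response: Fkbp4, Tsc22d3, Zbtb16, Klf9, Dusp1 and Nr3c1. They are the rows with these gene names in the colon table and in the ileum table, 7 of the 40178 genes that either table lists, and all 7 are in both. They were selected on their measured difference between DDX5KO and WT in these same libraries, so that difference is described below with no test. RNAseq was performed on intestinal epithelial cells (IECs), the cells that EDTA washes release from the gut wall, of 8-week-old mice. The WT mice were DDX5(+/+), Vil1Cre(+), and the DDX5KO mice were DDX5(fl/fl), Vil1Cre(+), so all mice carried the Cre transgene. Each genotype had 2 libraries from the colon and 2 from the ileum, and the mouse numbers in the study's tables tie the 8 libraries to 4 mice. The Villin1 promoter drives Cre in epithelial cells only, so any other cell type in the EDTA fraction kept its Ddx5 gene.

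DDX5 is an RNA helicase, and its own transcript was the check on the labels. Ddx5 RNA lay between 700.3 and 771 CPM (counts relative to the library total, TMM-scaled over the 8 libraries) in the 4 WT libraries and between 326 and 367 CPM in the 4 DDX5KO libraries. The 8 epithelial markers, among them Epcam and Vil1, were detected in every library, with a summed level between 13053 and 20309 CPM. Totals ran from 11571061 to 22984283 counts. DDX5KO Ileum replicate 2 stood apart with 19.5% of its counts on 3 repeat-like genes. DDX5KO replicate 1 stood apart in both tissues in several circadian genes, as given below.

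Glucocorticoids enter the cell and bind the glucocorticoid receptor, a transcription factor encoded by Nr3c1. Before it binds hormone the receptor sits in the cytoplasm in a complex with the chaperone HSP90 and a co-chaperone. FKBP51, the product of Fkbp5, is a co-chaperone that lowers the receptor's affinity for hormone, and FKBP52, the product of Fkbp4, takes its place and favours movement of the receptor into the nucleus. Fkbp5 is itself switched on by the receptor, which closes a negative feedback loop. Tsc22d3 encodes GILZ, an anti-inflammatory target of the receptor. Zbtb16 encodes the zinc finger protein PLZF, Klf9 a Krüppel-like repressor, and Dusp1 a phosphatase that switches off MAP kinases, and glucocorticoids induce all 3 in many cell types. The gut epithelium responds to adrenal hormone and can also make corticosterone of its own.

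RefSeq promoters, each 250 bases before to 50 after an annotated start on GRCm38.p6, were found for 5 of the 7 genes, 7 promoters in all. Those that hold a searched motif are shown, with the motif in capitals, and positions are counted from the start with bases before it negative. The first, at 17:28486100-28486399 on the minus strand, lies inside the span that GENCODE M21 gives Fkbp5 (17:28399094-28517527), so it belongs to a start inside the gene. Its capitals are an E-box, CACGTG, which begins at position -169. The Dusp1 promoter at 17:26508423-26508722 on the minus strand has a cAMP response element, TGACGTCA, at position -143 and an E-box at position -126. The Tsc22d3 promoter at X:140600473-140600772 on the minus strand, one of 3 for that gene, has the hexamer of the receptor, TGTTCT, at position -185.
Fkbp5: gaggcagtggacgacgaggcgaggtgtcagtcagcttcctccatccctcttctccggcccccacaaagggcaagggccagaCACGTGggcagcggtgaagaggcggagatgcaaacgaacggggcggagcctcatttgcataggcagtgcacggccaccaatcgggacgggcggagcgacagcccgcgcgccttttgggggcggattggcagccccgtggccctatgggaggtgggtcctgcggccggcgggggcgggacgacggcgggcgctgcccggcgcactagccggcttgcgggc
Dusp1: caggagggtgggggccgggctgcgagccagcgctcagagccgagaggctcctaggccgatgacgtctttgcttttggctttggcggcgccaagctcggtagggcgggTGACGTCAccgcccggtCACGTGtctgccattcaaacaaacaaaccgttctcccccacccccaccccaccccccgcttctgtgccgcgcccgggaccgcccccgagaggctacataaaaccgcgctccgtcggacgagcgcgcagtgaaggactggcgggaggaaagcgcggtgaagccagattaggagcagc
Tsc22d3: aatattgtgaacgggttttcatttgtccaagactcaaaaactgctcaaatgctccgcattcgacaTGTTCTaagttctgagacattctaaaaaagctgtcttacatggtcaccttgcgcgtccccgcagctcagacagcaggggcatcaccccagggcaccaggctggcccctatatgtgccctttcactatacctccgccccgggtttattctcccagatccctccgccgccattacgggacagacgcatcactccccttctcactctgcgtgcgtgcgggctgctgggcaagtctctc

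The tables list Fkbp5 as ENSMUSG00000024222.17 and Fkbp4 as ENSMUSG00000030357.10, which GENCODE M21 places at 6:128429735-128438677 on the minus strand of GRCm38. Tsc22d3 is ENSMUSG00000031431.13 at X:140539528-140600659 and Zbtb16 is ENSMUSG00000066687.5 at 9:48654297-48836222, both on the minus strand. Klf9, Dusp1 and Nr3c1 are listed as ENSMUSG00000033863.1, ENSMUSG00000024190.6 and ENSMUSG00000024431.14. Counts cover the exons of each gene.

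The full glucocorticoid response element searched, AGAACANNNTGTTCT, was in 0 of the 7 promoters and in 0.00913% of the 32851 promoters of the table. The hexamer, AGAACA or TGTTCT, was in 19.0% of all promoters, the E-box in 7.15% and the cAMP response element in 1.79%, searched on both strands. The hexamer lies inside the full element, so every promoter with the full element also counts for the hexamer. These matches describe letters in windows of 300 bases, and sites further from a start are outside them.

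Nr3c1, the receptor itself, was expressed in every library and was higher in the ileum. Its level was 128 and 124 CPM in WT Colon replicates 1 and 2 and 96.6 and 142 CPM in DDX5KO Colon replicates 1 and 2. In the ileum it was 254 and 251 CPM in WT and 227 and 219 CPM in DDX5KO. The genotypes overlapped in the colon, while both DDX5KO ileum libraries lay below both WT ileum libraries, a position that 20.8% of the 14068 genes tested in the ileum also held. The fitted log2 difference between DDX5KO and WT was -0.11 ± 0.15 (SE) in colonic IECs and -0.17 ± 0.14 in ileal IECs. Fewer cells of a type and less RNA per cell cannot be told apart in such bulk libraries.

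**Figure D1:**
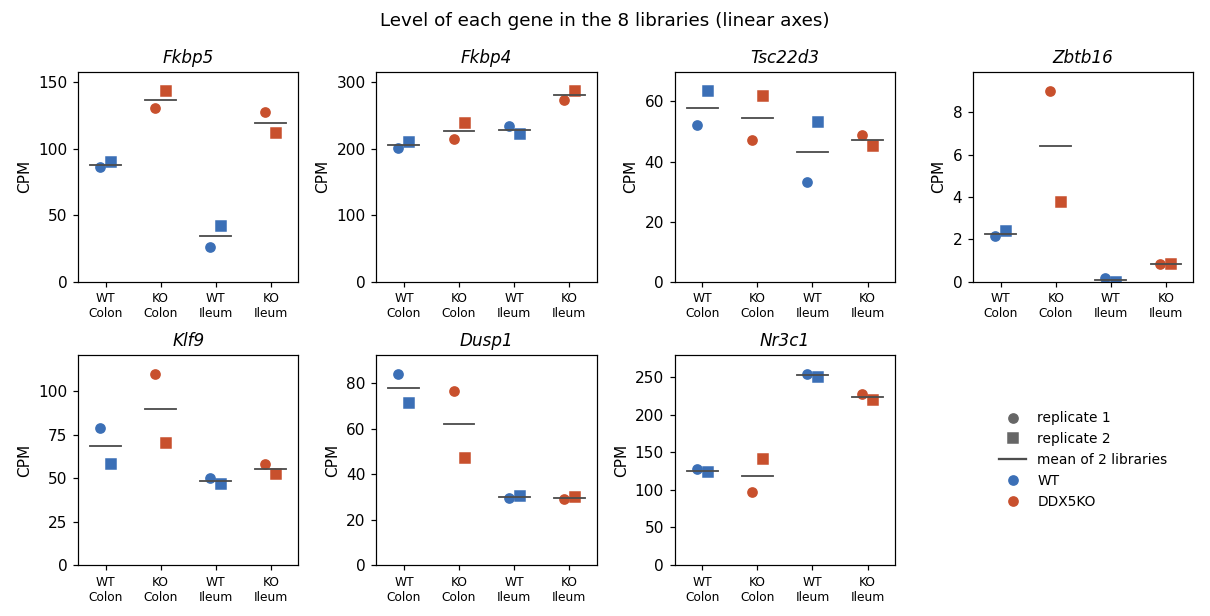
CPM of each of the 7 genes on linear axes from 0, by tissue and genotype, with circles for replicate 1, squares for replicate 2 and a line at the mean of 2 libraries. Fkbp5 is between 26.0 and 42.1 CPM in WT Ileum and between 112 and 143 CPM in the 4 DDX5KO libraries, and Zbtb16 is under 1 CPM in all ileum libraries.

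Fkbp4 encodes the co-chaperone that favours entry of the receptor into the nucleus. It was 201 and 211 CPM in WT Colon and 215 and 239 CPM in DDX5KO Colon. In the ileum it was 235 and 223 CPM in WT and 274 and 287 CPM in DDX5KO. Both DDX5KO libraries lay above both WT libraries in each tissue, by a fitted log2 difference of 0.13 ± 0.08 (SE) in colonic IECs and 0.30 ± 0.15 in ileal IECs. That position was also held by 23.8% of the 15362 genes tested in colonic IECs and by 18.7% of those in ileal IECs.

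Fkbp5 encodes the co-chaperone that lowers hormone binding, and of the 6 genes fitted in the ileum it had the largest fitted log2 difference between genotypes. In colonic IECs its level was 86.1 and 89.9 CPM in WT replicates 1 and 2 and 130.4 and 143 CPM in DDX5KO replicates 1 and 2. In the ileum it was 26.0 and 42.1 CPM in WT and 127 and 112 CPM in DDX5KO, from raw counts of 563, 607, 1357 and 1044. Both DDX5KO libraries lay above both WT libraries in each tissue, a position held by 23.8% of genes tested in colonic IECs and 18.7% in ileal IECs. The fitted log2 difference was 0.63 ± 0.08 (SE) in the colon, a 1.54-fold higher level in DDX5KO, and 1.85 ± 0.20 in the ileum, a 3.61-fold higher level. In the ileum this ranked 32 from the top of 14068 genes, and in the colon 766 from the top of 15362 genes. The pairs of one replicate number gave log2 ratios of 0.60 and 0.67 in colonic IECs and of 2.29 and 1.41 in ileal IECs. WT Ileum replicate 1 was the lowest of the 8 libraries. Without the 3 repeat-like genes that took counts in DDX5KO Ileum replicate 2 the fitted ileum value was 1.86. As the rule used this contrast, these values describe why the gene was chosen and were not tested.

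Ratios inside a library do not depend on how libraries are scaled. They hold the Fkbp5 counts by which the gene was chosen, so they describe the same difference and add no support. Fkbp5 had 0.428 and 0.426 reads per Fkbp4 read in WT Colon against 0.606 and 0.599 in DDX5KO Colon. In WT Ileum the ratio was 0.111 and 0.189, against 0.464 and 0.389 in DDX5KO Ileum. Per read of the receptor gene Nr3c1, Fkbp5 had 0.675 and 0.726 reads in WT Colon and 1.35 and 1.01 in DDX5KO Colon. The same ratio was 0.102 and 0.168 in WT Ileum and 0.559 and 0.510 in DDX5KO Ileum. In both ratios every DDX5KO library exceeded both WT libraries of its tissue. The share of other gene pairs with that position was not counted.

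**Figure D2:**
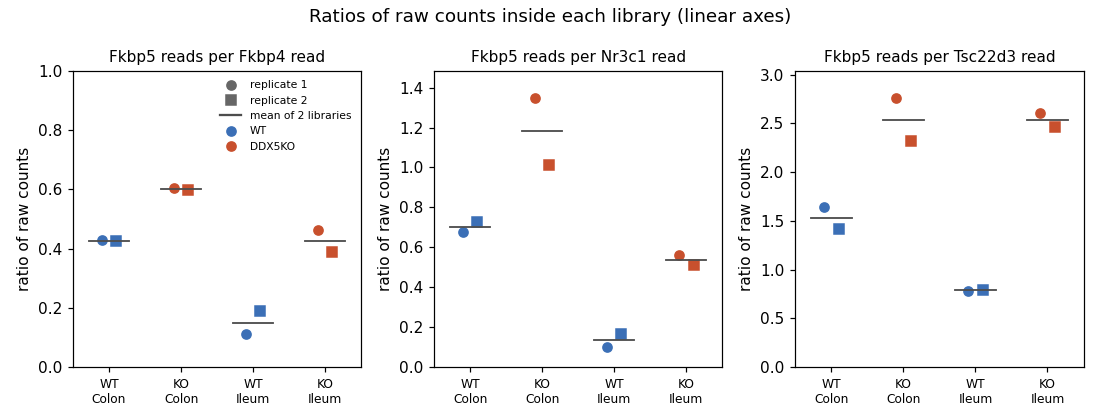
Fkbp5 raw counts divided by those of Fkbp4, Nr3c1 and Tsc22d3 in the same library, on linear axes from 0, with circles for replicate 1, squares for replicate 2 and a line at the mean of 2 libraries. WT Ileum has the lowest Fkbp5 share in all 3 panels, 0.784 and 0.793 reads per Tsc22d3 read against 2.61 and 2.47 in DDX5KO Ileum.

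Tsc22d3, the GILZ gene, overlapped between genotypes in both tissues. Its level was 52.3 and 63.5 CPM in WT Colon and 47.2 and 61.8 CPM in DDX5KO Colon. In the ileum it was 33.1 and 53.1 CPM in WT and 48.8 and 45.3 CPM in DDX5KO, so both DDX5KO values lay between the WT values. The fitted log2 difference was -0.10 ± 0.10 (SE) in colonic IECs and 0.17 ± 0.18 in ileal IECs. The replicate pairs of the ileum pointed in opposite directions, with log2 ratios of 0.56 and -0.23.

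Zbtb16, the PLZF gene, was the lowest of the 7 genes and was nearly absent from the ileum. Its raw counts were 41 and 54 in WT Colon and 163 and 83 in DDX5KO Colon, or 2.15, 2.38, 9.0 and 3.78 CPM. The DDX5KO colon libraries lay above both WT libraries, at a fitted log2 difference of 1.36 ± 0.39 (SE). That position was also held by 23.8% of the genes tested in colonic IECs. The pairs gave 4.18-fold and 1.59-fold, and DDX5KO replicate 1 was the higher library. In the ileum only 4 and 0 reads were counted in WT and 9 and 8 in DDX5KO, so the gene failed the filter on low counts there and no fold was fitted. All 7 genes passed the filter in colonic IECs and over the 8 libraries, and 6 of 7 passed it in ileal IECs.

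Klf9 overlapped between genotypes in the colon, at 78.6 and 58.3 CPM in WT and 109.8 and 70.1 CPM in DDX5KO. In the ileum it was 49.98 and 46.8 CPM in WT and 58.3 and 52.7 CPM in DDX5KO. Both DDX5KO libraries lay above both WT libraries there, as they did for 18.7% of the genes tested in ileal IECs. The fitted log2 difference was 0.36 ± 0.10 (SE) in colonic IECs and 0.20 ± 0.13 in ileal IECs. Replicate 1 was the higher library of every group for this gene.

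Dusp1, the MAP kinase phosphatase gene, is also an immediate early gene that handling of tissue can induce. It was 84.0 and 71.4 CPM in WT Colon and 76.6 and 47.3 CPM in DDX5KO Colon, with a fitted log2 difference of -0.37 ± 0.14 (SE). The colon genotypes overlapped, and the lowest value was that of DDX5KO replicate 2. In the ileum all 4 libraries lay between 29.0 and 30.2 CPM, and the fitted log2 difference was -0.02 ± 0.14. Among the 12 other immediate early and dissociation genes, all tested in both tissues, 0 rose, 2 fell in the colon (Nr4a1 by 0.76 and the heat shock gene Hspa1a by 0.75 on the log2 scale) and 0 changed in the ileum. Here and below a gene is said to rise or fall between genotypes when its log2 difference was at least 0.5 in size with an unadjusted edgeR p under 0.05, the criterion of the study. Over all genes tested, 3.04% rose and 3.67% fell in the colon, and 3.87% rose and 3.48% fell in the ileum.

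**Figure D3:**
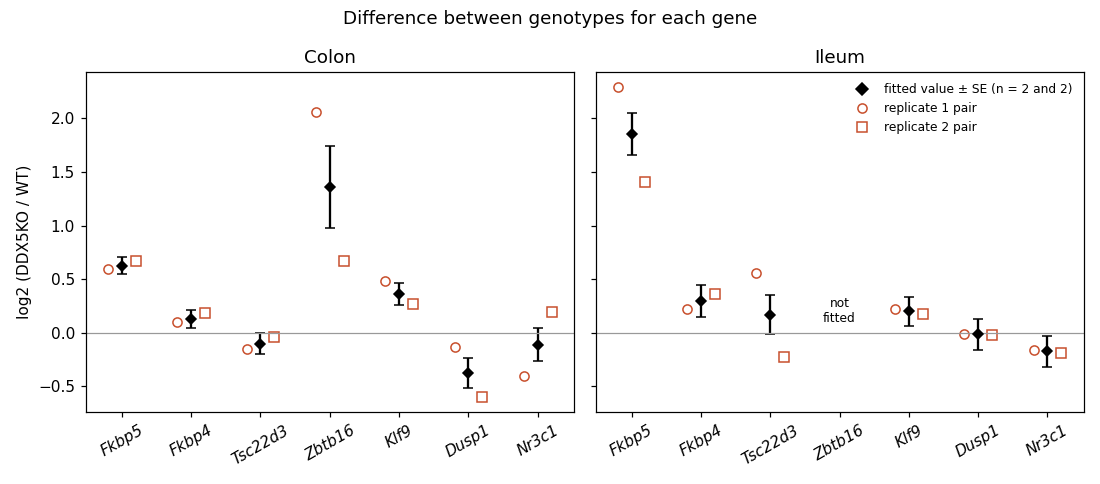
Log2 of DDX5KO over WT for each gene in the colon and the ileum, with diamonds and bars for the fitted value ± SE (n = 2 and 2), open circles for the replicate 1 pair and open squares for the replicate 2 pair. Fkbp5 lies at 0.63 in colonic IECs and 1.85 in ileal IECs, and the pairs of Tsc22d3 in the ileum and of Nr3c1 in the colon lie on both sides of 0.

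Divided by gene length, Fkbp4 had the highest level of the 7 genes in all groups, between 73.7 and 100.4 CPM per kilobase (means of 2 libraries), and Zbtb16 the lowest. In WT Colon, Dusp1 followed with 28.8 ± 3.29 CPM per kilobase (SD, n = 2), then Klf9 with 21.0 ± 4.4, Nr3c1 with 16.9 ± 0.36, Tsc22d3 with 13.3 ± 1.82 and Fkbp5 with 9.29 ± 0.28. Klf9 and Nr3c1 lay within 1 SD of Klf9 of each other. In DDX5KO Colon the order was Klf9 with 27.6 ± 8.62 CPM per kilobase (SD, n = 2), Dusp1 with 23.0 ± 7.69, Nr3c1 with 16.0 ± 4.27, Fkbp5 with 14.5 ± 0.96 and Tsc22d3 with 12.6 ± 2.39, and neighbours in it differed by less than the larger of their SDs. In WT Ileum, Nr3c1 was second with 34.0 ± 0.32 CPM per kilobase (SD, n = 2), followed by Klf9 with 14.8 ± 0.70, Dusp1 with 11.05 ± 0.24, Tsc22d3 with 9.93 ± 3.25 and Fkbp5 with 3.60 ± 1.2, and of these Dusp1 and Tsc22d3 lay within 1 SD of Tsc22d3. So Fkbp5 was last but for Zbtb16 in both WT groups. In DDX5KO Ileum, after Nr3c1 and Klf9, Fkbp5 with 12.6 ± 1.15 CPM per kilobase stood above Dusp1 with 10.9 ± 0.19 and Tsc22d3 with 10.8 ± 0.57, and those 2 lay within 1 SD of Tsc22d3.

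The tissues were not used to choose the genes, so ileum and colon were compared with edgeR's quasi-likelihood test within the 4 mice. Zbtb16 entered this fit only through its colon counts, so it is described between tissues with no test. The other 6 genes had an adjusted p under 0.05, 2 of them higher and 4 lower in the ileum. The background was wide, since 51.2% of the 16178 genes tested passed this threshold, 25.3% higher and 25.9% lower in the ileum. Between tissues a gene is said to rise or fall at this threshold. With the DDX5KO libraries alone Dusp1, Nr3c1 and Klf9, 3 of the 6, passed, and the same 3 passed without WT mouse replicate 1. A fit of 1 genotype alone shares its libraries with the contrast that chose the genes, so its p-values are a description only.

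Dusp1, Nr3c1 and Klf9 kept their side of the threshold in all alternatives run. Nr3c1 was 1.96-fold higher in the ileum, with a log2 ratio of 0.97 ± 0.10 (SE) and an edgeR adjusted p of 0.000151, and it was higher in 4 of 4 mice. Over the alternatives its adjusted p ran from 2.07e-16 to 0.0145. Dusp1 was 2.32-fold higher in the colon, with a log2 ratio of -1.21 ± 0.14 and an adjusted p of 0.000199 (range 3.39e-31 to 0.0156), in 4 of 4 mice. The immediate early genes moved in the same direction, since 9 of the 12 fell from colon to ileum and 0 rose, among them Nr4a1 at a log2 ratio of -2.45 and Fosb at -1.51. The part of tissue handling in the Dusp1 value was not tested.

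Klf9 was 1.49-fold higher in the colon, with a log2 ratio of -0.58 ± 0.10 (SE) and an edgeR adjusted p of 0.00253 (range 9.49e-09 to 0.0308), in 4 of 4 mice. Zbtb16 had 41 to 163 reads in the colon libraries and 0 to 9 in those of the ileum, and it was lower in the ileum in 4 of 4 mice. Of 11 T cell and innate lymphoid markers tested, which mark cells that can express Zbtb16, 4 rose from colon to ileum and 0 fell. Their summed level was 7.6 to 53.9 CPM in colonic IECs and 64.3 to 114.9 CPM in ileal IECs. Over all genes tested, 25.3% rose and 25.9% fell. The part of lymphoid cells in the Zbtb16 level was not tested.

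Fkbp5, Tsc22d3 and Fkbp4 passed the threshold by less. Fkbp5 was lower in the ileum in 4 of 4 mice, with a log2 ratio of -0.79 ± 0.25 (SE) and an edgeR adjusted p of 0.0305. The WT mice alone gave -1.41 ± 0.14 with an adjusted p of 6.71e-05, and the DDX5KO mice alone -0.17 ± 0.14 with an adjusted p of 0.40. WT Ileum, low for this gene, also entered the contrast that chose it, so these p-values are a description only. The adjusted p was 0.0861 without WT mouse replicate 1, 0.114 without WT mouse replicate 2 and 0.0755 with DESeq2, within a range from 9.35e-15 to 0.40 over the alternatives. The gap between the WT and DDX5KO tissue ratios corresponds to the gap between the genotype differences of ileum and colon. As the gene was chosen on those genotype differences, this gap was not tested.

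Tsc22d3 had a log2 ratio of -0.33 ± 0.11 (SE) with an edgeR adjusted p of 0.0419, and it was lower in the ileum in 3 of 4 mice, DDX5KO replicate 1 being the exception. The call was lost without WT mouse replicate 1 (adjusted p = 0.183), WT mouse replicate 2 (0.0926) or DDX5KO mouse replicate 2 (0.141), and the range was 0.00114 to 0.455. With all mice kept it was also lost, at an edgeR adjusted p of 0.0615 with RLE scaling and 0.110 with no replicate block. DESeq2 gave an adjusted p of 0.0762. Fkbp4 was 1.17-fold higher in the ileum, with a log2 ratio of 0.23 ± 0.08 and an edgeR adjusted p of 0.0360, in 4 of 4 mice. Without WT mouse replicate 1 its adjusted p was 0.136, without DDX5KO mouse replicate 1 0.102 and without DDX5KO mouse replicate 2 0.0941, in a range from 0.0114 to 0.336.

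**Figure D4:**
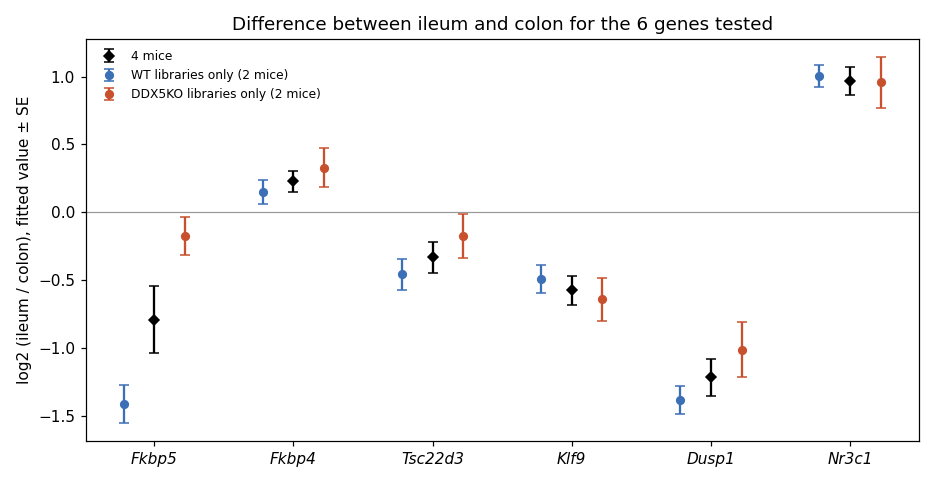
Log2 of ileum over colon for the 6 genes tested between tissues, fitted value ± SE, with black diamonds for 4 mice, blue circles for the 2 WT mice and orange circles for the 2 DDX5KO mice. Fkbp5 lies at -1.41 in WT and -0.17 in DDX5KO mice, while Nr3c1 lies at 1.00 and 0.96.

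The rest of the receptor pathway was read from lists without the 7 genes. In these fits 0 genes of any list had an adjusted p under 0.05 between genotypes. In the colon that held for all 15362 genes (edgeR), with 1836 at an unadjusted p under 0.05 and 117 at an adjusted p under 0.05 in DESeq2. In the ileum 98 genes passed in edgeR and 39 in DESeq2.

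Of 30 other glucocorticoid-induced genes, 28 were tested in colonic IECs and 27 in ileal IECs, and they moved in both directions. In the colon 1 rose and 3 fell, with a median log2 difference of -0.02 against 0.00 over all genes. The gene that rose was Hif3a, which encodes a regulator of the hypoxia response, at 1.21 ± 0.26 (SE). Those that fell were the metallothioneins Mt1 (-0.72 ± 0.15) and Mt2 (-0.60 ± 0.23), which bind zinc, and Pck1 (-0.58 ± 0.10), a gluconeogenic enzyme. In the ileum 4 rose and 3 fell, with a median of 0.18 against 0.00. Angptl4, an inhibitor of lipoprotein lipase, rose by 1.77 ± 0.45 on the log2 scale, Hif3a by 1.31 ± 0.38, the transcription factor gene Cebpb by 1.05 ± 0.22 and the glutamine synthetase gene Glul by 0.54. Mt1 (-0.88 ± 0.22), the phosphatidate phosphatase gene Lpin1 (-0.66 ± 0.14) and Mt2 (-0.59 ± 0.23) fell. Several of these values differed between the replicate pairs. Angptl4 in the ileum was 8.60-fold higher in the replicate 1 pair, which holds the DDX5KO mouse that stood apart, and 1.37-fold higher in the replicate 2 pair. Cebpb was 2.74-fold and 1.48-fold higher there.

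Hif3a rose and Mt1 and Mt2 fell in both tissues, which came from the same mice. The Mt2 difference lay mainly in the replicate 2 pairs, with ratios of DDX5KO to WT of 0.492 in colonic IECs and 0.438 in ileal IECs, against 0.897 and 0.963 in the replicate 1 pairs. For Mt1 the ratios were 0.736 and 0.510 in the colon pairs 1 and 2 and 0.755 and 0.391 in those of the ileum. The Hif3a level was 2.63 and 3.04 CPM in WT Colon against 7.84 and 5.61 CPM in DDX5KO Colon, and 1.62 and 0.83 CPM in WT Ileum against 3.47 and 2.57 CPM in DDX5KO Ileum. Sgk1 and Per1, 2 direct targets of the receptor, did not pass the criterion. Sgk1 had log2 differences of 0.20 ± 0.18 (SE) in colonic IECs and 0.45 ± 0.37 in ileal IECs, and Per1 of 0.09 ± 0.25 and 0.28 ± 0.18. Replicate pairs 1 and 2 gave log2 ratios for Sgk1 of 0.55 and -0.13 in the colon and 1.51 and -0.65 in the ileum. For Per1 they gave 0.57 and -0.40 in the colon and 0.50 and 0.03 in the ileum. The counts of this list moved with single libraries. With a library left out and no block, the colon count of 4 became 10 without DDX5KO replicate 1 and also 10 without DDX5KO replicate 2, and the ileum count of 7 became 4 without WT replicate 1 and 3 without WT replicate 2. Between tissues 9 of 28 rose and 10 fell from colon to ileum, with Anxa1 at a log2 ratio of -6.43 and Pdk4 at -4.63 among the lower and Rgs2 at 2.67 and Sesn1 at 2.50 among the higher genes.

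Of 12 inflammatory genes that glucocorticoids repress, 5 were tested in each tissue. In the colon the cytokine gene Tnf (-1.58 ± 0.34, SE) and the nitric oxide synthase gene Nos2 (-1.43 ± 0.36) fell and 0 rose, and in the ileum 0 changed. The replicate pairs 1 and 2 of the colon gave log2 ratios of -2.08 and -1.13 for Tnf and -2.16 and -0.72 for Nos2. T cell and innate lymphoid markers fell beside them in the colon, 7 of 10 tested, with a median log2 difference of -1.85. Their summed level was 53.9 and 41.4 CPM in WT Colon and 7.6 and 21.8 CPM in DDX5KO Colon, and 4 of them were called without WT Colon replicate 1. The part of these cells in the inflammatory genes, or in the 7 genes, was not tested. In the ileum 0 of 9 lymphoid markers changed. From colon to ileum 3 of 8 inflammatory genes rose, led by Ptgs2 at a log2 ratio of 6.84, and 4 fell, led by Cxcl10 at -1.83.

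The receptor's chaperones were all tested. Hspa8, which encodes the constitutive HSP70 that loads the receptor, was the 1 of 12 that rose in the colon, at 0.60 ± 0.14 (SE), and it rose in the ileum by 0.65 ± 0.21 on the log2 scale with Stip1, the HOP adaptor between HSP70 and HSP90, by 0.58 ± 0.13. None fell. The colon count became 0 without WT replicate 1, 2 without WT replicate 2 and 3 without DDX5KO replicate 1, and the ileum count of 2 became 0 without WT replicate 1 and 1 without DDX5KO replicate 2. The HSP90 genes themselves had log2 differences of 0.30 ± 0.08 (Hsp90aa1) and 0.14 ± 0.09 (Hsp90ab1) in colonic IECs and 0.43 ± 0.16 and 0.30 ± 0.19 in ileal IECs, and did not pass. Between tissues 2 chaperones rose and 3 fell, with log2 ratios from -0.56 (Dnajb1) to 0.23 (Ptges3).

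Of the 13 other FK506-binding proteins 0 rose between genotypes. Of them 11 were tested in the colon, where Fkbp11, a secretory pathway isomerase gene, fell by 0.92 on the log2 scale, and 10 in the ileum, where 0 changed. Between tissues 2 of 11 rose, led by Fkbp1a at 1.06, and 4 fell, led by Fkbp9 at -2.74. Of 12 receptor coregulators and partners, a list that includes the mineralocorticoid receptor gene Nr3c2, 0 changed between genotypes in either tissue. From colon to ileum 7 rose, led by the acetyltransferase gene Ep300 at 0.83, and 1 fell, Nr3c2, by 1.27 on the log2 scale, opposite in direction to Nr3c1.

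Of 13 genes that make, inactivate or export the hormone, 9 were tested in each tissue. In the colon 1 fell, H6pd, which supplies the cofactor of the reactivating dehydrogenase, by 0.65. In the ileum 3 rose, the steroid dehydrogenase gene Hsd3b2 by 1.35 ± 0.36 (SE), the efflux pump gene Abcb1a by 0.64 ± 0.16 and Hsd11b2, whose enzyme inactivates corticosterone, by 0.62 ± 0.22 on the log2 scale. For Hsd11b2 the log2 ratio was 0.23 in the replicate 1 pair and 1.02 in the replicate 2 pair, and for Abcb1a it was 0.86 and 0.42, so in both genes 1 pair alone lay under 0.5. Hsd11b2 was between 75.4 and 114 CPM in colonic IECs and between 7.63 and 15.5 CPM in ileal IECs, a log2 ratio of -3.12 ± 0.15. Hsd11b1, whose enzyme reactivates the hormone, had at most 6 reads in any library. From colon to ileum 1 of 9 rose and 5 fell.

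Several circadian clock genes stood apart in 1 mouse, but not all clock differences were confined to it. Several of the 7 genes are known to cycle over the day. Dbp, a clock output gene, was 3.68 and 2.02 CPM in WT Colon and 35.7 and 2.83 CPM in DDX5KO Colon. In the ileum it was 4.38 and 1.94 CPM in WT and 23.9 and 2.57 CPM in DDX5KO. DDX5KO replicate 1 was the high library in both tissues, and DDX5KO replicate 2 lay between the WT libraries of its tissue. Per3, of the clock's negative limb, gave the same picture, with 53.0 CPM in DDX5KO Colon replicate 1 against 13.6 to 19.3 CPM in the other colon libraries, and Nfil3, which opposes Dbp, was lowest in DDX5KO replicate 1 in both tissues, at 2.76 and 8.99 CPM.

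By the criterion, 6 of 15 clock genes tested rose in the colon, led by Ciart (3.03 ± 0.44, SE), Dbp (2.08 ± 0.69) and Tef (1.2 ± 0.45), and Nfil3 fell. In colon pairs 1 and 2 Ciart was 10.3-fold and 4.83-fold higher, Dbp 9.71-fold and 1.40-fold and Tef 4.28-fold and 1.16-fold. Both DDX5KO colon libraries lay above both WT libraries for 4 of the 17 listed clock genes, below for 1, and overlapped for 12. The position above was held by 23.8% of the genes tested in colonic IECs. In the ileum Dbp rose by 1.83 ± 0.37 on the log2 scale and Nfil3 fell by 0.75 ± 0.27, of 14 tested. The colon count of 7 became 2 without DDX5KO replicate 1, 12 without DDX5KO replicate 2, 2 without WT replicate 1 and 0 without WT replicate 2, and the ileum count of 2 became 1 without DDX5KO replicate 1 and 11 without DDX5KO replicate 2. Between tissues 5 of 16 rose and 5 fell.

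Fkbp5 was highest in that mouse in the ileum, at 127 CPM against 112 CPM in DDX5KO replicate 2. In the colon it was not, at 130.4 CPM against 143 CPM. Its pair without DDX5KO replicate 1 gave 1.59-fold in the colon, against 1.51-fold in the other pair, and 2.65-fold in the ileum, against 4.89-fold. Zbtb16 and Klf9 were highest in DDX5KO Colon replicate 1, as Dbp was, and without it their colon pairs gave 1.59-fold and 1.2-fold. Hif3a gave 1.85-fold without it in colonic IECs and 3.09-fold in ileal IECs. The methods name a covariate for harvest batch or time point but the sources used here do not say which mice shared one. The part of the time of harvest in these values was not tested.

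**Figure D5:**
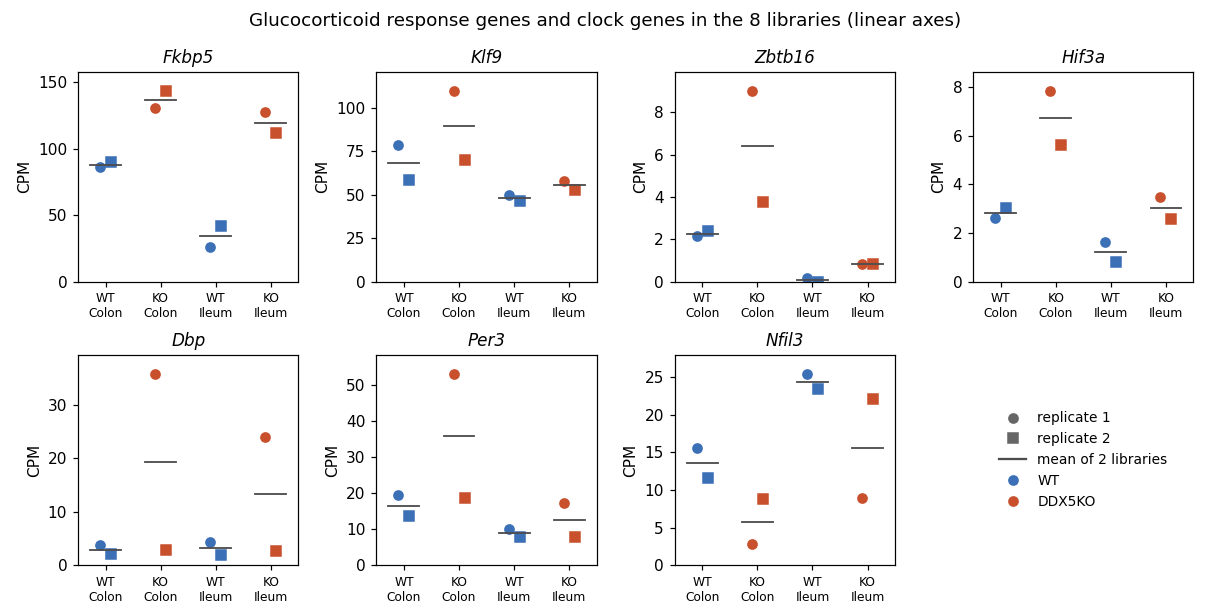
CPM on linear axes from 0 of Fkbp5, Klf9, Zbtb16 and the glucocorticoid-induced gene Hif3a, and of the clock genes Dbp, Per3 and Nfil3, with circles for replicate 1, squares for replicate 2 and a line at the mean of 2 libraries. Dbp is 35.7 and 23.9 CPM in DDX5KO replicate 1 and at most 4.38 CPM in all other libraries. In DDX5KO replicates 1 and 2 Fkbp5 is 130.4 and 143 CPM in the colon and 127 and 112 CPM in the ileum.

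Markers of the remaining cell types were low and few passed the filter. Of 8 B and plasma cell markers 1 was tested in each tissue and did not change, with a summed level of 0.4 to 5.1 CPM. Of 8 myeloid markers 4 were tested in the colon, where 0 changed, and 6 in the ileum, where Lyz2 rose by 2.18 on the log2 scale, with a summed level of 12.1 to 35.6 CPM. Of 9 stromal and endothelial markers 5 were tested in the colon, where Dcn fell by 1.49 and Pecam1 rose by 0.88, and 2 in the ileum, where 0 changed, with a summed level of 2.9 to 15.1 CPM. Of the 8 epithelial markers 0 changed between genotypes in either tissue. From colon to ileum 3 of 8 epithelial markers, 1 of 1 B and plasma cell markers and 3 of 7 myeloid markers rose, while 1 myeloid and 4 of 5 stromal and endothelial markers fell.

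The genes whose levels ran most like those of Fkbp5 were found by Pearson's r over the 8 libraries, each centred within its tissue, among 8828 protein-coding genes with a mean of at least 10 CPM. The highest values were those of Mrpl34 (0.99), Pgghg (0.98), Tsfm (0.98), Fam173b (0.97) and Ubr7 (0.97). Mrpl34 encodes a mitochondrial ribosomal protein and Tsfm a mitochondrial elongation factor. The lowest were those of Zfp704 (-0.99), Nudcd3 (-0.98) and Lamb2 (-0.97). Their differences were smaller than that of Fkbp5, with log2 differences in the ileum of 0.30 for Mrpl34, 0.74 for Fam173b and -0.52 for Zfp704. Of the other genes described here, Fkbp4 stood at 0.86, Tsc22d3 at 0.42, Klf9 at 0.37, Dusp1 at -0.24 and Nr3c1 at -0.40, and Ddx5 stood at -0.88. With 8 points from 4 mice that share their genotype contrast these values are a description only, and without centring 2 of the 8 named genes remained.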

How the data were processed

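The 7 genes and all gene lists were chosen with earlier results of these data known. Per the labels and the study's methods, the authors aligned reads of ribosome-depleted stranded libraries to mm10 with STAR 2.6.1a and counted uniquely mapped reads over GENCODE vM19 exons with featureCounts; the strand setting is not given in the sources used here. The authors deposited raw counts per gene, which were used here, and a normalized signal (counts divided by DESeq2 1.18.1 size factors), which was not. The deposited comparison columns (log2 fold change, SE, Wald score, p-values) were not used, and 0 other per-sample columns were left out. A gene missing from 1 table was counted as 0 there.

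Counts were filtered with filterByExpr (minimum count 10), scaled with TMM and tested with edgeR 4.0.16 in R 4.3.3, with the replicate number as block between genotypes and the mouse as block between tissues, and Benjamini-Hochberg adjustment. DESeq2 1.42.0, RLE scaling, no filter, no block, 1 fit of all 8 libraries, 1 genotype only and leaving out libraries were alternatives. Leaving out a library with a test was added after seeing the data, without the block, and assumes that the lone library varies like the others. Replicates are separate mice, 2 per genotype. In the main fits, p-values between genotypes measure the spread between mice that is left after the replicate block. Those between tissues measure the spread, over the mice, of the difference between ileum and colon. Named from each list were up to 3 genes per direction with the largest log2 change among those called; Sgk1, Per1, the HSP90 genes, Hsd11b1, and Glul were named outside that rule after their values were seen. Positions are on GRCm38; Dusp1, Klf9 and Nr3c1 have another identifier version in the annotation used and get no gene span.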

Additional observations from a re-analysis of the deposited data

Results flagged for a closer look

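Pecam1, an endothelial marker, was flagged because both replicate pairs moved one way in colonic IECs and the other way in ileal IECs. Its log2 difference between DDX5KO and WT was 0.88 ± 0.32 (SE) in colonic IECs and -0.47 ± 0.52 in ileal IECs, where it was smaller than its SE. The difference between the tissues was not tested. Groups of 2 libraries are too small for a test of single outlying libraries.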

How the results depend on the processing

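The log2 difference of Fkbp5 between genotypes stayed between 0.60 and 0.67 in the colon. Over the pairs left when 1 library was left out it stayed between 1.41 and 2.29 in the ileum. No tissue ratio of the 7 genes reversed in direction in the alternatives run. For the gene lists only counts were followed, not directions. Of the genotype differences of the 7 genes, Tsc22d3 in the ileum (-0.23 to 0.56) and Nr3c1 in the colon (-0.40 to 0.19) changed sign between pairs. Counts of genes moved more, and the cause was not tested. Genes called between genotypes were 1031 in the colon and 508 with DESeq2, and 608 to 2388 with 1 library left out. In the ileum they were 1034, 414 with DESeq2, and 479 to 1574 with 1 library left out. Genes with an adjusted p under 0.05 were 0 in the colon, 117 with DESeq2, 10 in 1 fit of all 8 libraries and 0 to 2506 with 1 library left out. In the ileum they were 98, 39 with DESeq2, 423 with no filter on low counts, 7 in 1 fit of all 8 libraries, 20 without 3 repeat-like genes and 1 to 23 with 1 library left out. Between tissues 8290 genes were called, and 4501 with the DDX5KO libraries only, where 4 of the 7 genes described were called. With 1 mouse left out 4 to 6 of the 7 were called. These counts include Zbtb16, which passed the filter through the colon alone and adds no support. Glucocorticoid-induced genes called were 4 in the colon, 1 in 1 fit of all 8 libraries and 4 to 10 with 1 library left out, and 7 in the ileum, 4 in 1 fit of all 8 libraries and 3 to 10 with 1 library left out.

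The study used cohoused littermate pairs, but the sources used here do not tie them to the replicate numbers. The deviations of same-numbered WT and DDX5KO libraries correlated at 0.0068 in colonic IECs and 0.24 in ileal IECs, beside 0.14 between the colon and ileum libraries of the same mouse in each genotype, so the data did not settle the pairing. The block was kept, as the study's own design had a harvest covariate. With no replicate block 1040 genes were called in colonic IECs and 786 in ileal IECs, 5 and 1 genes had an adjusted p under 0.05, and Fkbp5 had log2 differences of 0.63 and 1.82. Between tissues 6 of the 7 genes, Zbtb16 included, were called with no replicate block. With 2 libraries per group, depth limits Zbtb16 in the ileum (0 to 9 reads) above all.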
